A study of Mus musculus with 18 samples.

Results

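The paternally methylated imprinted loci were taken as the genes H19, Igf2, Rasgrf1, Dlk1 and Meg3 of GENCODE M21 with 10 kb on either side, together with the spans between H19 and Igf2 and between Dlk1 and Meg3. The 5 genes were taken by name, with earlier results of these data known. Their windows held 4783 of the 21867550 CpGs listed for the genome, and 1725 of these had at least 1 read in all 18 libraries. These CpGs fell into 304 of the 1539925 tiles of 1 kb with such CpGs, and 186 member tiles were tested among 620960 in the genome, the tested tiles being those with 10 reads or more in each library. Reads were counted at each CpG and then summed, so a read over several CpGs counts once at each of them. The tested tiles were 60 at H19-Igf2 (chr7:142565529-142676816), 78 at Dlk1-Meg3 (chr12:109442823-109581726) and 48 at Rasgrf1 (chr9:89899908-90036977), all in GRCm38.

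The assay was eRRBS, an enhanced form of reduced representation bisulfite sequencing, in which DNA is cut by restriction enzymes (here MspI, BfaI and MseI) and bisulfite-treated so that an unmethylated cytosine is read as thymine. All 18 libraries came from mouse embryonic stem cells in which Dnmt1 had been knocked out and which carried a pPyCAGIP vector with DNMT1, selected with puromycin. The vector coded for wild-type DNMT1 (WT) or for DNMT1 with tryptophan replaced by alanine at the named residues. The single mutants were W796A and W465A, the double mutants W464A/W465A and W465A/W796A, and W464A/W465A/W796A is called the triple mutant. Each of the 6 groups had 3 biological replicates. The cells were grown on gelatin in medium with serum and leukemia inhibitory factor. The labels state that several stable lines were made per group, but not whether each replicate was a separate line, so the tests measure the spread between these libraries. Cells with the empty vector were not analysed here, so every level is that of cells with a vector-borne DNMT1. The design text gives the aim as an examination of the methylation patterns that DNMT1 maintains.

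An imprinted gene is expressed from the allele of only one parent, and a methylation mark laid down in one parent's germline sets which allele that is. DNMT1 copies methylation onto the new strand after each replication, and these marks depend on it after fertilisation. At H19-Igf2, CTCF binds the unmethylated maternal control region upstream of H19, a noncoding RNA, and insulates the growth factor gene Igf2 from shared enhancers. At Dlk1-Meg3, a germline-methylated region upstream of Meg3, a noncoding RNA, controls Meg3 and Dlk1, which codes for a transmembrane protein related to Notch ligands. Rasgrf1 codes for a Ras guanine nucleotide exchange factor and is controlled from a methylated region farther upstream. In the literature on Dnmt1-deficient embryonic stem cells, methylation at imprinted regions was reported not to return on re-expression of Dnmt1 without passage through the germline, while other sequence regained it. That is background, and germline methylation before Dnmt1 was lost was not measured here.

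The libraries held between 59776439 and 138978763 CpG calls each, and a tested tile had a median of 46 reads per library. The genome-wide mean tile level was 70.1% ± 8.15 in WT, 70.6% ± 12.3 in W796A, 30.2% ± 6.22 in W465A, 50.4% ± 3.92 in W465A/W796A, 22.2% ± 3.02 in W464A/W465A and 21.5% ± 2.44 in the triple mutant (SD, n = 3 libraries each). Of genes that mark embryonic stem cells, the promoters of Pou5f1, Sox2, Klf4 and Nanog were at 0.747, 0.209, 0.260 and 4.59% in WT, those of Tfcp2l1 and Tdgf1 at 1.99 and 2.37%, and those of Zfp42, Dppa3 and Esrrb at 23.8, 36.1 and 75.8% (2, 12 and 4 CpGs). Of markers of other cells, the promoters of the fibroblast genes Col1a1, Col1a2 and Thy1 were at 56.3, 17.9 and 2.39%, those of the trophoblast genes Elf5 and Cdx2 at 66.7 and 0.482%, and those of the primitive endoderm genes Gata6 and Sox17 at 3.33 and 7.56%. Fgf4 and Col3a1 had no CpG read in all libraries. Promoter methylation does not measure expression, which these data do not hold. In 2 libraries, W464A/W465A replicates 1 and 3, the read depth at Dlk1-Meg3 was 0.595 and 0.539 times the median library, against 0.877 to 1.06 in the other libraries. On chromosome 12 their relative depth was 0.967 to 1.03 in every 5 Mb bin up to 100 Mb, and 0.504 to 0.604 in every bin from 105 to 120 Mb, the part that holds Dlk1 and Meg3. A lower depth widens the error of a level. The parental copies cannot be told apart in these reads, so if the copies were unequal in number the level itself would be touched too, and the part of this depth in the levels was not tested. W464A/W465A values at this locus are therefore also given from replicate 2 alone.

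**Figure D1:**
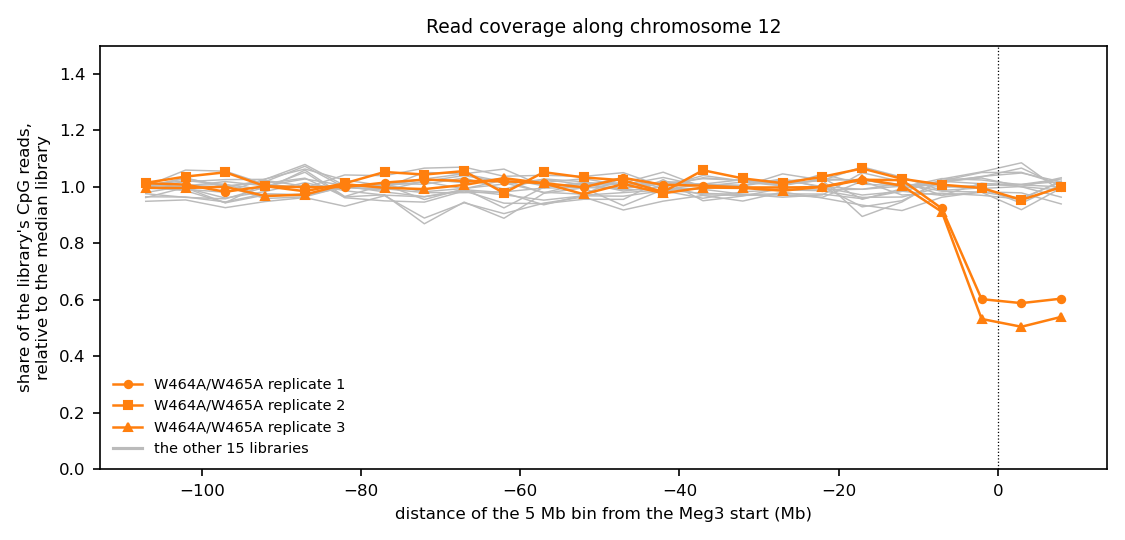
Read depth along chromosome 12 in 5 Mb bins, as a ratio to the median library (y axis, no unit), with 1 line per library. The x axis gives the distance of the bin from the Meg3 start in Mb. W464A/W465A replicates 1 and 3 lie at 0.967 to 1.03 up to chromosome position 100 Mb and at 0.504 to 0.604 from position 105 to 120 Mb.

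Over the member tiles, methylation was nearly as high as in the genome in WT and fell with each mutant that carried W465A. The mean level of the 186 tiles was 66.9% ± 7.91 in WT, 69.2% ± 11.8 in W796A, 28.9% ± 5.49 in W465A, 47.3% ± 2.68 in W465A/W796A, 21% ± 2.70 in W464A/W465A and 20.7% ± 2.79 in the triple mutant (SD, n = 3). The groups stood in the same order as over the genome. The libraries of WT and W796A overlapped, as did those of W464A/W465A and the triple mutant, while the other neighbours in that order did not. H19-Igf2 was the lowest of the 3 loci in every group: its mean was 62.8% in WT, 41.7% in W465A/W796A and 16.9% in W464A/W465A, where Dlk1-Meg3 had 67.9, 50.1 and 23.4% and Rasgrf1 had 70.5, 49.7 and 22.1%. DNA came from many cells, so fewer methylated alleles and fewer methylated cells cannot be told apart at any of these loci.

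Against WT, 166 of the 186 member tiles fell in W465A (89.2%), by a median of 42.6 percentage points. A tile was called when its adjusted p from a quasi-binomial model over all tiles was under 0.05 and its pooled levels differed by at least 10 points. In the genome 92.1% of tiles were lower by the same rule, 0% were higher, and the median difference was -43.1 points. The called tiles were 52 of 60 at H19-Igf2, 71 of 78 at Dlk1-Meg3 and 43 of 48 at Rasgrf1. In W464A/W465A 170 member tiles fell (91.4%, median difference -51.4 points), where the genome had 94.5% lower, 0% higher and a median of -51.9. In the triple mutant 170 tiles fell as well (91.4%, median -52.2), where the genome had 94.9% lower, 0% higher and a median of -53.3. These shares lay near, and slightly under, those of the genome. All the comparisons with WT share its 3 libraries. In W464A/W465A replicate 2 alone, the Dlk1-Meg3 window over all its measured tiles was at 29.7%, where the WT mean was 70.6%.

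In W465A/W796A 78 member tiles (41.9%) were called lower than WT, with a median difference over the 186 tiles of -21 points. The genome had 32.7% lower, 0.000322% higher and a median of -20.9. By locus the called tiles were 28 of 60 at H19-Igf2, 34 of 78 at Dlk1-Meg3 and 16 of 48 at Rasgrf1. This count depended on single libraries. Of the WT libraries, leaving out replicate 2 gave 0, replicate 3 gave 32 and replicate 1 gave 109, and of W465A/W796A, leaving out replicate 2 gave 23 and replicate 3 gave 15. The genome's shares without these libraries are not given here, so whether the members moved with the genome cannot be read from these counts.

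With W796A alone, 0 of the 186 member tiles were called in either direction by the quasi-binomial model. Of the 186 tiles 13 had an unadjusted p under 0.05 in that model, and of the 620960 tiles of the genome 19776 had. Limma on log2 ratios of methylated to unmethylated reads also called 0 member tiles. By the calls of the quasi-binomial model the genome had 0.00129% of tiles lower and 0.00612% higher. The median difference was 1.07 points over the members and -0.41 over the genome. Without WT replicate 3, 4 member tiles were called higher, among them the tile upstream of H19 and the tile of the H19 start, and without W796A replicate 1 there were 4, again with both H19 tiles. The genome's shares without these libraries are not given here, so a gain particular to the members cannot be read from these counts.

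At the control region upstream of H19, the CpGs were methylated in a large and variable share of reads in WT and W796A, and nearly unmethylated in every mutant with W465A, W465A/W796A included. The window from 2 to 4 kb upstream of the H19 start (chr7:142580143-142582143, between genes; H19, ENSMUSG00000000031.16, lies on the minus strand at chr7:142575529-142578143) has 60 CpGs in the reference. Of these, 19 were read in all libraries in its tested tile, with 121 to 258 reads per library. The stretch below, chr7:142581601-142581888 on the minus strand in GRCm38, is shown because it holds the largest group of measured CpGs in the window. Its 11 measured CpGs are in capitals.
H19 upstream stretch: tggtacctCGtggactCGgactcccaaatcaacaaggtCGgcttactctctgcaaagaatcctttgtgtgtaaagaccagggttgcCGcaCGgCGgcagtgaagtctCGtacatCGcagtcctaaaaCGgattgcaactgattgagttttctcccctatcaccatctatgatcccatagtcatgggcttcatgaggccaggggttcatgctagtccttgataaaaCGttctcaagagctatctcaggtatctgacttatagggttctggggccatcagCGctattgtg

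The WT libraries differed widely in the H19 upstream window, at 8.76, 39.9 and 79.9% (mean 42.8% ± 35.6, SD, n = 3). The W796A libraries were at 69.9, 91.9 and 85.1% (mean 82.3% ± 11.2). WT replicate 3 lay within the W796A range and the other WT libraries below it. In W465A the libraries were at 0.397, 2.14 and 2.38%, and in W465A/W796A at 5.58, 2.94 and 0.694%. The W464A/W465A libraries were at 1.12, 1.43 and 1.35%, and those of the triple mutant at 0, 0.826 and 0.889%. All 12 libraries of the mutants with W465A were thus below the lowest WT library, and those of W465A and W465A/W796A overlapped.

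In the H19 window W465A differed from WT by -41.2 points and W464A/W465A by -41.5. W465A/W796A differed by -39.8 (SE 20.6) and the triple mutant by -42.3, and each of these 4 differences had an exact two-sided permutation p of 0.1. No smaller p can come from groups of 3, and the 12 such tests on the 2 germline windows were not adjusted. W796A was higher than WT by 39.5 points (SE 21.6, exact permutation p = 0.2). W465A/W796A exceeded W465A by 1.43 points (SE 1.54, exact permutation p = 0.4). In the quasi-binomial model over all tiles, the tile chr7:142581001-142582000 was lower than WT in the triple mutant (adjusted p = 7.94e-06), W464A/W465A (3.13e-05), W465A (4.23e-05) and W465A/W796A (0.00672). It was not called for W465A/W796A against W465A (2.08 points, adjusted p = 0.535) or for W796A against WT (39.2 points, adjusted p = 0.289). The W796A difference was called without WT replicate 3 (52.7 points, adjusted p = 0.00224) and without W796A replicate 1 (46.3 points, adjusted p = 0.0331). Without WT replicate 2 the call in W465A/W796A was lost (-41.7 points, adjusted p = 0.102).

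Along the printed H19 stretch, single CpGs ranged from 14.3 to 65.2% in WT and from 58.3 to 100% in W796A, with the reads of the 3 libraries summed. In W465A/W796A they ranged from 0 to 21.1%, and the stretch as a whole was at 3.54% against 1.54% in W465A, 44.4% in WT and 84.7% in W796A. The triple mutant had 0 methylated of 179 CpG calls, which share reads. The other measured stretches of the window also had W796A above WT and both W465A and W465A/W796A far below it, with 39.2 and 44.5% in WT, 81.5 and 79.2% in W796A, 0.552 and 2.52% in W465A, and 4.91 and 1.97% in W465A/W796A.

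The letters CGNGGNGGC, a core shared by CTCF sites of this control region, and TGCCGC, the hexamer that the zinc finger protein ZFP57 recognises when methylated, were searched on both strands. The window held 3 matches to the CTCF-type core, all on the minus strand. They are shown, with the match in capitals, because no CpG inside them was read in all libraries, so the levels above are those of the sequence around them.
CTCF-type match at chr7:142580311-142580319: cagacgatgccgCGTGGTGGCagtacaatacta
CTCF-type match at chr7:142580766-142580774: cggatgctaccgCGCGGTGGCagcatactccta
CTCF-type match at chr7:142582036-142582044: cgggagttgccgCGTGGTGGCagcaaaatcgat

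Of 5 matches to TGCCGC in the H19 window, 2 held a measured CpG, both within the printed stretch. The CpG at position 142581794 was at 42.9% in WT, 73.3% in W796A, 0% in W465A and 5.26% in W465A/W796A, and that at 142581801 was at 40.9, 80.0, 3.70 and 0%. Across tested tiles, the CTCF-type core occurred in 6.22% of all tiles and 4.84% of member tiles, and TGCCGC in 11.6 and 11.3%. A match describes the letters only.

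**Figure D2:**
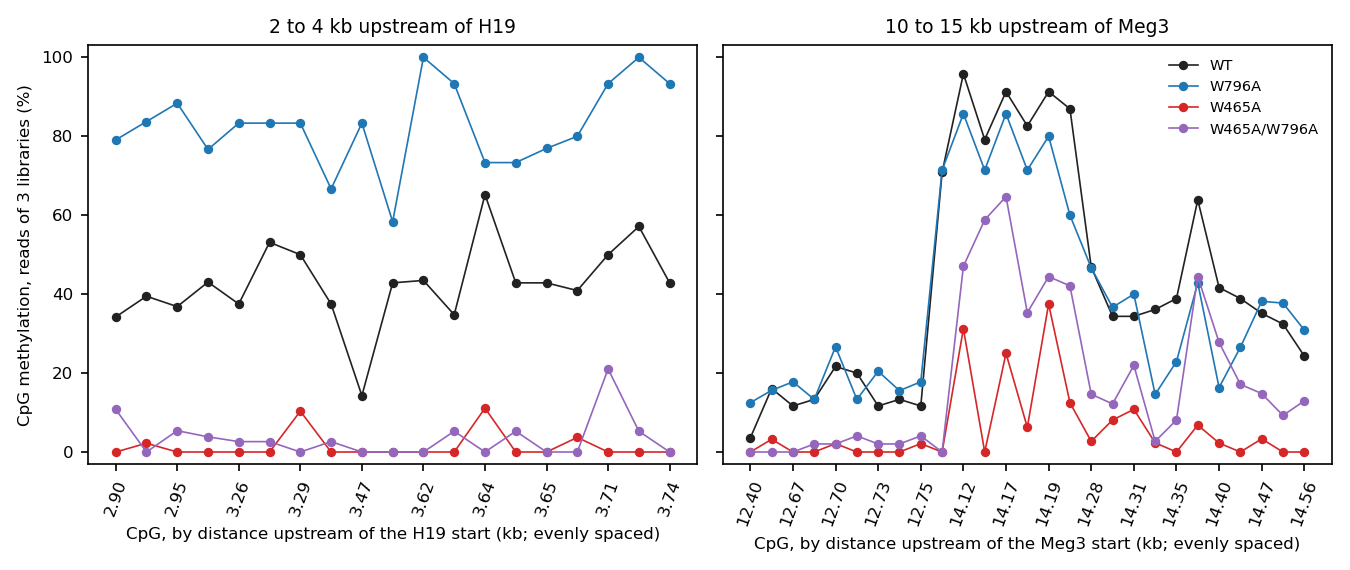
Methylation (%) of each measured CpG in the windows upstream of H19 and of Meg3, against distance from the gene's start, from the summed reads of 3 libraries per group. At H19 the W465A/W796A points lie with W465A near 0%, and at Meg3 most of them lie between W465A and WT in the right-hand part of the panel.

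H19 itself showed the same pattern at its start and not in its body. Within 500 bp of the H19 start (chr7:142577643-142578643, 6 measured CpGs, 20 to 100 reads), the WT libraries were at 15.9, 29.8 and 67.9%. The W796A libraries were at 71.7, 94.4 and 82.5%, all above WT, and those of W465A/W796A at 6.49, 4.55 and 7.32%, all below it. W465A had 10.9, 0 and 10.1%, so it overlapped W465A/W796A. W464A/W465A had 0% in each library, and the triple mutant 0, 11 and 12.6%. In the H19 gene body WT was at 58.8, 70.7 and 77.3%, W796A at 57.1, 93.9 and 87.1%, W465A at 37.4, 23.4 and 24.8% and W465A/W796A at 37.0, 32.8 and 48.8%. In the body, W465A/W796A lay below all WT libraries and overlapped W465A. In the 10 kb downstream of H19 the means were 73.2% in WT, 75.5% in W796A, 41.0% in W465A and 60.2% in W465A/W796A.

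Igf2 (ENSMUSG00000048583.16, minus strand, chr7:142650766-142666816) lay between a methylated body and unmethylated CpG-rich starts. The gene body was at 26.3, 42.6 and 44.1% in WT, 34.4, 51.2 and 38.4% in W796A, 19.4, 10.7 and 11.9% in W465A, and 26.5, 24.7 and 22.5% in W465A/W796A (223 CpGs in 15 tiles). W465A/W796A was above W465A in every library and overlapped WT. W464A/W465A had 5.48, 10.2 and 6.48%, and the triple mutant 7.0, 13.7 and 5.98%. Around the annotated starts inside the gene WT had means of 43.0 to 61.0% at 4 starts, of which 2 share their measured CpGs, where W465A had 11.04 to 23.3%, and of 1.18 to 2.48% at 3 starts. At the most CpG-rich of these (chr7:142658989-142659989, 71 CpGs) no library exceeded 5.43%, and the means of WT and W796A were 1.18 and 3.28%. The start at the 5' end of the Igf2 record and that of Dlk1 had no CpG read in all libraries. Between H19 and Igf2, over 51 tiles tested or not, means were 71.3% in WT, 76.6% in W796A, 31.2% in W465A and 47.2% in W465A/W796A. The genome means, over tested tiles only, were 70.1, 70.6, 30.2 and 50.4%.

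The region upstream of Meg3 also fell in every mutant with W465A, and here W465A/W796A kept more methylation than W465A. The window from 10 to 15 kb upstream of the Meg3 start (chr12:109526001-109531001, between genes; Meg3, ENSMUSG00000021268.17, plus strand, chr12:109541001-109571726) has 135 CpGs in the reference, of which 27 were measured in 2 tiles with 178 to 627 reads per library. These stretches of the more methylated tile, on the plus strand in GRCm38, are shown because their levels differed within 500 bp. They are chr12:109526431-109526727 with 11 and chr12:109526783-109526930 with 7 measured CpGs, in capitals.
Meg3 upstream stretch 1: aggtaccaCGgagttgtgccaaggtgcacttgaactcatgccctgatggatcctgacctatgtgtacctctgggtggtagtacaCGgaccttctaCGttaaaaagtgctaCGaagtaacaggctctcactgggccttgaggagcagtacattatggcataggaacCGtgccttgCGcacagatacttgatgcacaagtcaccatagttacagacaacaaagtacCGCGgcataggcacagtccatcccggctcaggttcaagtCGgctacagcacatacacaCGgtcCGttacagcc
Meg3 upstream stretch 2: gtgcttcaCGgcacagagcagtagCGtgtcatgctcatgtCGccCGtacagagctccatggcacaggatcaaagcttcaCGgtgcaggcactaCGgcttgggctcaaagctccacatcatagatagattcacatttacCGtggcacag

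The WT libraries were at 38.8, 35.9 and 20.7% in the Meg3 upstream window (mean 31.8% ± 9.74, SD, n = 3), and the W796A libraries at 13.9, 19.7 and 47.9%, on both sides of WT. W465A had 5.07, 1.13 and 2.28%, and W465A/W796A had 13.7, 8.65 and 12.5%, so all W465A/W796A libraries were above all W465A libraries and below all WT libraries. W464A/W465A had 3.65, 1.97 and 5.15%, the middle value being replicate 2, and the triple mutant 2.93, 4.19 and 4.54%. Both lay below WT and below W465A/W796A.

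Against WT, the Meg3 window was at -29.0 points for W465A and -28.2 for W464A/W465A. It was at -20.2 for W465A/W796A (SE 5.83) and -27.9 for the triple mutant, each at an exact permutation p of 0.1. W465A/W796A exceeded W465A by 8.79 points (SE 1.93, exact permutation p = 0.1). W796A differed from WT by -4.61 points (SE 11.9, exact permutation p = 0.8), and without W796A replicate 1 by 2.03.

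The excess over W465A was in the tile chr12:109526001-109527000 (18 CpGs, 80 to 313 reads). Its WT libraries were at 51.3, 57.8 and 35%, W796A at 22.3, 32.8 and 52.5%, W465A at 9.36, 2.26 and 3.33%, and W465A/W796A at 25, 16.0 and 23.3%. W465A/W796A was thus above W465A and below WT in every library, by 16.3 points (adjusted p = 0.0151, quasi-binomial model) and -31.0 points (adjusted p = 0.00747). The call against WT was lost without WT replicate 2 (adjusted p = 0.135) and with limma (0.0802). In the next measured tile, chr12:109528001-109529000 (9 CpGs), WT was at 26.3, 14 and 6.34%, W465A at 0.787, 0 and 1.22% and W465A/W796A at 2.48, 1.25 and 1.67%. Here W465A/W796A was below all WT libraries, and its difference from W465A had an adjusted p of 0.606. Both tiles come from the same libraries, and the difference between them was not tested.

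Within the first tile, the printed stretch 1 was at 38.8% in WT, 31.3% in W796A, 2.95% in W465A and 16.3% in W465A/W796A. Stretch 2, separated from it after the values were seen, was at 85.4, 75.6, 15.9 and 42.1%, W796A having 5 to 7 reads at each CpG there. The window held 10 matches to TGCCGC, of which 2 had a measured CpG. The CpG at 109526657 was at 36.1% in WT, 14.6% in W796A, 2.33% in W465A and 2.70% in W465A/W796A, and that at 109528299 was at 21.7, 26.7, 2.13 and 2.04%.

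The start of Meg3 was nearly unmethylated, except in 1 library of W796A. The promoter below (chr12:109540746-109541045, plus strand, from the RefSeq table on GRCm38, which held 4 of the 5 members) is shown because the W796A libraries disagreed there. The 12 measured CpGs are in capitals.
Meg3 promoter: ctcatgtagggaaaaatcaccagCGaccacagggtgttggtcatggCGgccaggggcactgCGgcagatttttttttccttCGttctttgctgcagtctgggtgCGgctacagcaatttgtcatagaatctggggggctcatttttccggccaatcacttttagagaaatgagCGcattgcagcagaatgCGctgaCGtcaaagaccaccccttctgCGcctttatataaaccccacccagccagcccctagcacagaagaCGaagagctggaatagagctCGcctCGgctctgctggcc

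Within 500 bp of the Meg3 start (17 measured CpGs) WT was at 5.63, 8.97 and 3.49%, and W796A at 8.95, 2.60 and 36.0%. W796A replicate 3 was the only library above 10%. W465A had 1.08, 0 and 0.649%, W465A/W796A 1.09, 0.901 and 0.485%, W464A/W465A 1.2, 2.87 and 1.09% and the triple mutant 1.34, 0 and 0%. These 12 libraries were all below the lowest WT library.

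The Meg3 gene body was highly methylated and partly kept in W465A/W796A. WT was at 66.7, 74.9 and 71.9%, W796A at 51.3, 76.0 and 76.8%, W465A at 36.1, 26.8 and 28.3%, and W465A/W796A at 61.7, 50.4 and 56.0%. The W465A/W796A libraries lay below WT and above W465A without overlap. W464A/W465A had 23.6, 27.7 and 23.4%, with 27.7% in replicate 2, and the triple mutant 18.3, 25.5 and 19.6%. The tile chr12:109549001-109550000, at an annotated start within Meg3 (26 CpGs), had the largest fall in W465A among called member tiles whose libraries did not overlap, by 67.2 points (adjusted p = 2.95e-07, quasi-binomial model). Its levels were 88.0, 92.9 and 87.2% in WT, 31.3, 13.8 and 22.9% in W465A, and 69.3, 51.3 and 67.3% in W465A/W796A. The 10 kb downstream of Meg3 were at 86.7% in WT, 41.9% in W465A and 70.4% in W465A/W796A.

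Dlk1 (ENSMUSG00000040856.17, plus strand, chr12:109452823-109463336) fell in W465A and was intermediate in W465A/W796A. Its gene body was at 44.4, 71.8 and 65.2% in WT, 54.0, 71.4 and 63.7% in W796A, 28.2, 18.3 and 17.4% in W465A and 51.4, 43.6 and 40.9% in W465A/W796A. W465A/W796A was above all W465A libraries and overlapped WT. W464A/W465A had 11.3, 22.0 and 12.4%, with 22.0% in replicate 2, and the triple mutant 16.9, 22.3 and 15.3%. The tile chr12:109460001-109461000 in Dlk1 was higher in W465A/W796A than in W465A by 41.4 points (adjusted p = 0.0305, quasi-binomial model), with 70.1, 68 and 69.0% against 18.2, 35 and 18.2%. Between Dlk1 and Meg3 the means were 71.7% in WT, 73.6% in W796A, 33.4% in W465A and 51.5% in W465A/W796A.

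**Figure D3:**
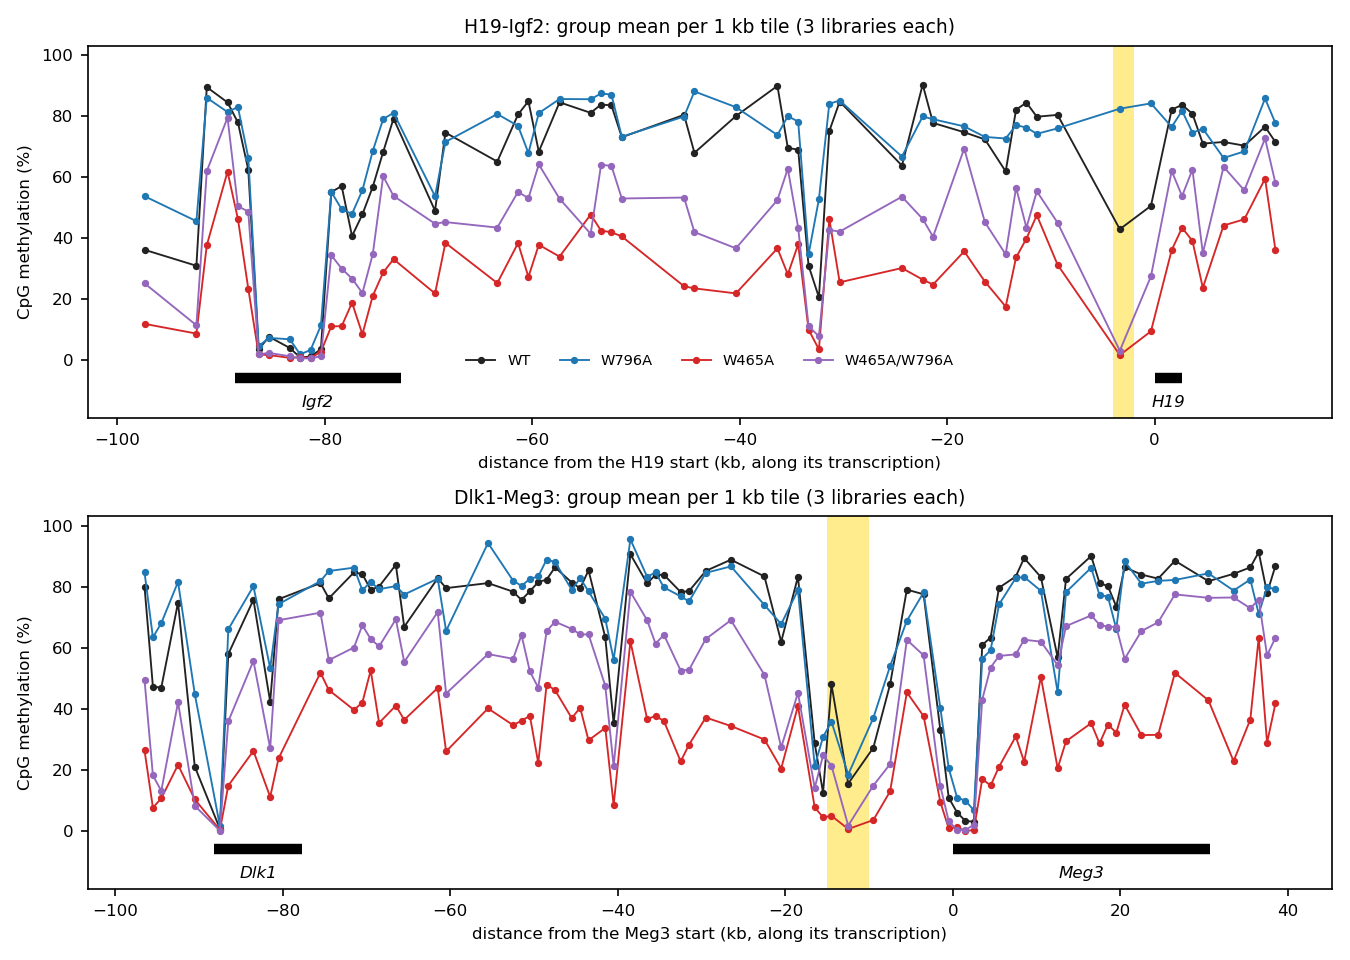
Mean methylation (%) of each tested 1 kb tile along H19-Igf2 and Dlk1-Meg3, against distance in kb from the start of H19 or Meg3, for WT, W796A, W465A and W465A/W796A (means of 3 libraries). Yellow bands mark the germline windows and black bars mark the genes. In these windows the W465A/W796A mean is 3.07% upstream of H19 and 11.6% upstream of Meg3. The value upstream of Meg3 is the mean over 2 plotted tiles, of which chr12:109526001-109527000 is at 21.4% and the other is lower.

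Rasgrf1 (ENSMUSG00000032356.12, plus strand, chr9:89909908-90026977) was highly methylated in its body in WT and nearly unmethylated at its start. The start (47 measured CpGs) was at 0.318, 0.383 and 2.97% in WT, and the highest library of any group was W796A replicate 1 with 5.04%. The gene body was at 64.4, 78.5 and 76.6% in WT, 60.8, 85.4 and 81.4% in W796A, 40.5, 25.7 and 27.5% in W465A and 50.7, 51.8 and 47.3% in W465A/W796A. W465A/W796A lay between W465A and WT without overlap. W464A/W465A had 18.6, 23.7 and 18.9%, and the triple mutant 19.9, 23.9 and 18.8%.

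The germline-methylated region of Rasgrf1 lies outside the 10 kb flank and is described apart. In the region from 25 to 40 kb upstream of the Rasgrf1 start (chr9:89869908-89884908, 38 CpGs in 10 tiles) WT was at 52.9, 64.9 and 81.1%, W796A at 54.6, 83.1 and 79.8%, W465A at 26.6, 17.5 and 20.6% and W465A/W796A at 36.7, 35 and 31.2%. Again W465A/W796A was above W465A and below WT in every library. The CpGs of chr9:89881690-89881812, printed because they were the lowest measured stretch of that region in W465A/W796A, were at 34.7% in WT, 50.8% in W796A, 6.67% in W465A and 5.71% in W465A/W796A. The 5 measured CpGs are in capitals, on the plus strand in GRCm38.
Rasgrf1 upstream stretch: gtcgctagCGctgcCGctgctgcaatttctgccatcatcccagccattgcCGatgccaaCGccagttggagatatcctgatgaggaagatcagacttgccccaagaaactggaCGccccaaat

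**Figure D4:**
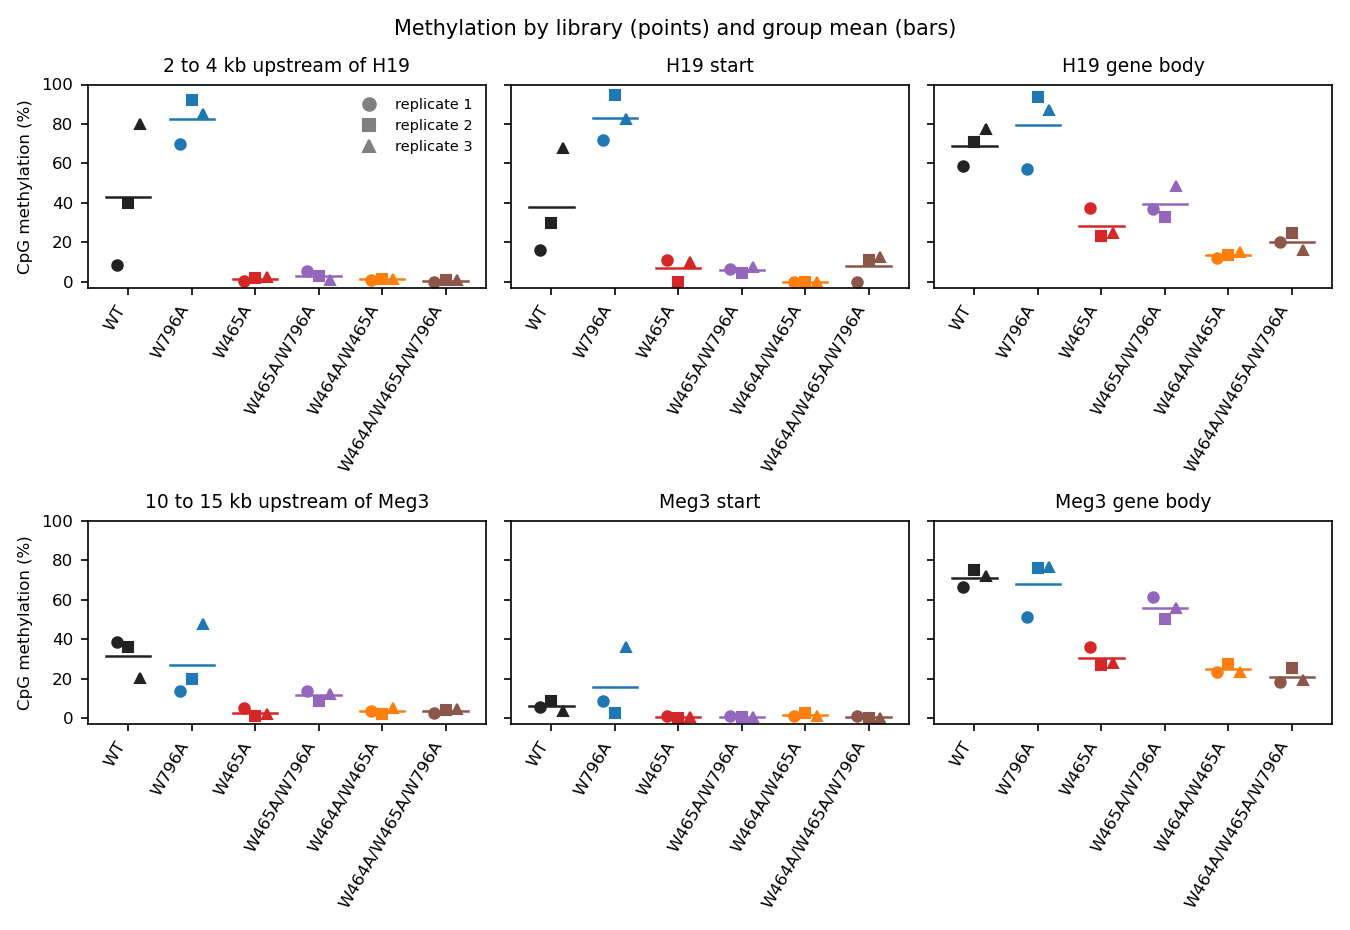
Methylation (%) in each library (points) with the group mean (bars), in the windows upstream of H19 and Meg3, at the 2 starts and in the 2 gene bodies, for the 6 groups. Upstream of H19 the WT libraries spread from 8.76 to 79.9% and all libraries with W465A lie at or below 5.58%.

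With W796A added to W465A, methylation was higher than with W465A alone at 47 of the 186 member tiles (25.3%), and 0 were lower. The genome had 23.9% higher and 0.000805% lower. The calls were unevenly spread: 34 of 78 tiles at Dlk1-Meg3 (43.6%), 8 of 48 at Rasgrf1 (16.7%) and 5 of 60 at H19-Igf2 (8.33%). The median difference was 22.2 points at Dlk1-Meg3, 20.3 at Rasgrf1 and 16.3 at H19-Igf2, against 20.9 over the genome. Whether the loci differ was not tested. Besides the Dlk1 tile, the largest differences were at chr12:109574001-109575000, downstream of Meg3 (54.2 points, adjusted p = 0.0128, quasi-binomial model), and chr9:89904001-89905000, upstream of Rasgrf1 (40.1 points, adjusted p = 0.0406). Both of these tiles had 3 CpGs and 10 reads in the lowest library, and the Dlk1 tile had 6 CpGs and 11 reads. Single libraries moved this count too. Leaving out replicate 3 of W465A, or replicate 1 of W465A/W796A, brought it to 1, leaving out replicate 2 of W465A brought it to 9, and leaving out replicates 2 and 3 of W465A/W796A in turn brought it to 28 and 29. With limma it was 9. These are counts of member tiles, without the genome's share under the same setting.

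The departure from additivity compares the effect of W796A in the W465A background with its effect in the WT background, tested on the logit scale. At 3 of the 186 member tiles (1.61%) W465A/W796A was higher than the sum of the single effects, and at 0 it was lower; the genome had 1.68% above and 0.00193% below. The 3 tiles were the Meg3 tile chr12:109549001-109550000 (50.1 points, adjusted p = 0.0139, quasi-binomial model), the tile chr12:109526001-109527000 upstream of Meg3 (34.0 points, adjusted p = 0.0239) and an exon tile of Rasgrf1, chr9:89953001-89954000 (38.9 points, adjusted p = 0.0486). The points are differences of differences between pooled levels, which the logit test does not measure. In the tile upstream of Meg3, adding the single effects in points gives a negative level, so its points are no excess over a possible level. In the Rasgrf1 tile WT was at 77.9, 82.4 and 92.7%, W796A at 63.4, 79.5 and 80.6%, W465A at 40.4, 36.0 and 36.6% and W465A/W796A at 68.3, 72.5 and 54.1%. The tile upstream of H19 had a departure of -37.1 points (adjusted p = 0.687). Leaving out W796A replicate 2 gave 31 such member tiles, leaving out WT replicate 1 gave 15, and leaving out WT replicate 2, W465A replicate 3 or W465A/W796A replicate 1 gave 0, as did limma. Genome shares under these settings are not given here, so a move particular to the members cannot be read from the counts.

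The called tiles with the largest falls from WT, among those whose libraries did not overlap, lay at different members. In W465A they were, after the Meg3 tile, chr7:142600001-142601000 between H19 and Igf2 (-64.9 points) and chr9:90000001-90001000 in a Rasgrf1 exon (-63.1). In W464A/W465A they were chr12:109554001-109555000 in a Meg3 intron (-71.5), chr12:109518001-109519000 between Dlk1 and Meg3 (-71.2) and chr7:142669001-142670000 upstream of Igf2 (-70.8). In W464A/W465A replicate 2 the first 2 of these tiles were at 16.7 and 13.1%, against means of 82.6 and 83.4% in WT. The triple mutant's were chr9:89977001-89978000 in a Rasgrf1 intron (-74.4), the same tile between Dlk1 and Meg3 (-72.0) and chr7:142618001-142619000 between H19 and Igf2 (-71.6). In W465A/W796A all 3 lay between H19 and Igf2: chr7:142618001-142619000 (-43.5), chr7:142600001-142601000 (-42.9) and chr7:142608001-142609000 (-42.8). Several of the tiles named in this paragraph rest on few reads. In the lowest library chr9:89977001-89978000 (2 CpGs, WT SD 23.3 points) and chr12:109554001-109555000 (4 CpGs) had 10. The tile chr7:142608001-142609000 (3 CpGs) had 12 and chr9:90000001-90001000 (4 CpGs) had 13. The best covered, chr7:142669001-142670000 (10 CpGs), had 68.

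The level of W465A/W796A as a share of the WT level places the H19 tile at the low edge of the genome. Over the 587605 tiles with at least 20% methylation in WT, the median share was 71.5%, and over 169 member tiles it was 68.6%. The H19 upstream tile was at 8.22%, and 0.00987% of all tiles were at or below that value. The next member tiles were at 26.5% (chr12:109446001-109447000, upstream of Dlk1), 32.2% (chr7:142610001-142611000) and 34.4% (chr7:142611001-142612000, both between H19 and Igf2). The tile chr12:109526001-109527000 upstream of Meg3 was at 41.1%, and 2.41% of all tiles were at or below it. The next measured tile of that window, chr12:109528001-109529000, was at 14.5%, with 0.0456% of all tiles at or below it. Its WT level was 13.7%, under the 20% asked of the other tiles. Upstream of Rasgrf1, outside the members, chr9:89881001-89882000 was at 16.5%, with 0.0648% at or below it. The other tested tiles of that region ran from 33.2 to 68.5%. In W465A the H19 tile was at 3.35% of WT, where the median tile was at 41.8%, and in W796A it was at 191.8% where the median was 99.1%. The H19 tile's WT level is the mean of unlike libraries, so its share has a wide error.

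**Figure D5:**
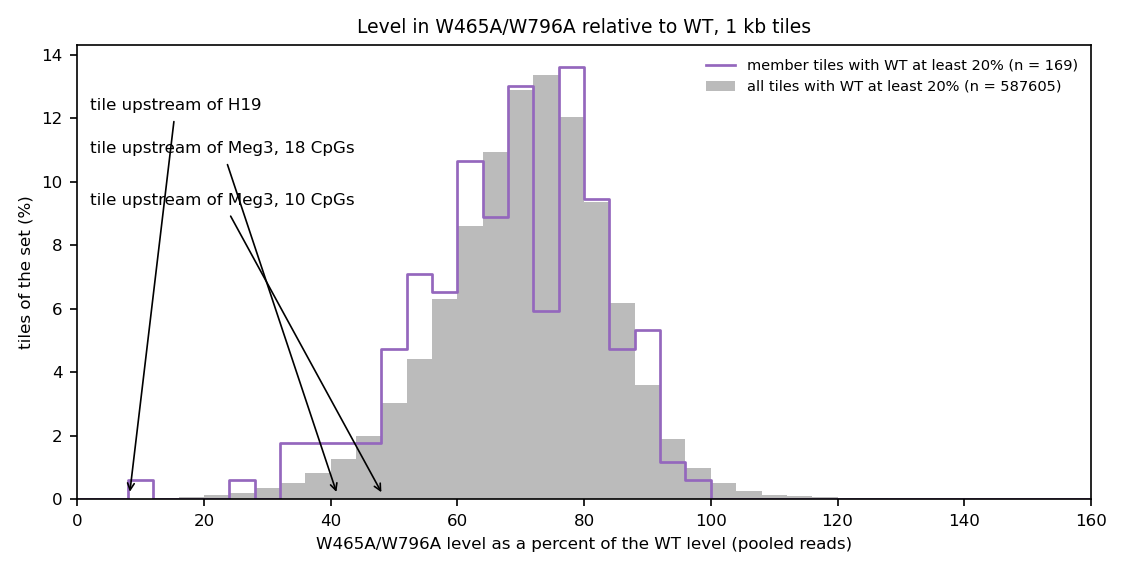
Level in W465A/W796A as a percent of the WT level (x axis), as the percent of tiles in each bin (y axis), for all 587605 tiles with at least 20% in WT (grey) and the 169 member tiles (purple outline). The H19 upstream tile is at 8.22%, and tiles upstream of Meg3 are at 41.1 and 48.3%. The tile at 48.3%, chr12:109531001-109532000, begins where the Meg3 window ends. The window's tile chr12:109528001-109529000, at 14.5%, is not drawn because its WT level was under 20%.

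The CpG-dense member tiles were lower than CpG-dense tiles of the genome. At over 20 CpGs per kb, 35 member tiles had a median of 46.0% in WT, 53.1% in W796A, 9.30% in W465A and 15.0% in W465A/W796A, where 85888 tiles of the genome had 62.1, 61.0, 18.2 and 42.5%. At 11 to 20 CpGs per kb the medians in W465A/W796A were 54.5 and 56.8%. These are descriptions, with no test. By annotation, member tiles at promoters had medians of 56.7% in WT, 14.9% in W465A and 34.3% in W465A/W796A, and intergenic ones 78.1, 34.3 and 53.1%.

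By member gene with its flanks, the median tile in W465A/W796A was lowest at Igf2, with 30.8% against 54.0% in WT and 16.1% in W465A. It was 52.9% at Dlk1 (77.7 and 25.9%), 53.5% at Rasgrf1 (78.0 and 32.5%), 54.5% at H19 (76.7 and 38.2%) and 59.4% at Meg3 (82.2 and 31.6%). Among 15475 genes, those whose mean level over the 18 libraries was closest to a member's were Sv2b for H19 (mean absolute difference 2.17 points), Mknk2 for Igf2 (1.46), Moxd1 for Rasgrf1 (0.938), Celf4 for Dlk1 (1.69) and Kat7 for Meg3 (1.51).

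Genes that neighbour the members in their clusters, together with Zdbf2 and Gpr1 elsewhere, gave 279 tested tiles. Of these, 85 fell in W465A/W796A (30.5%, genome 32.7%), 250 in W465A (89.6%, genome 92.1%), 259 in the triple mutant (92.8%, genome 94.9%) and 260 in W464A/W465A (93.2%, genome 94.5%). W465A/W796A was higher than W465A at 78 (28.0%, genome 23.9%). At the far end of the Dlk1-Meg3 cluster, Dio3, which codes for an enzyme that inactivates thyroid hormone, had medians over 11 tiles of 34.6% in WT, 50.2% in W796A, 11.1% in W465A and 11.5% in W465A/W796A. Rtl1, Rian and Mirg, which lie between Meg3 and Dio3, had medians of 68.4, 67.3 and 65.9% in W465A/W796A. At 10 maternally methylated genes with 288 tested tiles, 105 tiles fell in W465A/W796A (36.5%), 253 in W465A (87.8%), 262 in the triple mutant (91.0%) and 258 in W464A/W465A (89.6%), against the genome shares just given. At 51 (17.7%) W465A/W796A was higher than W465A, and 1 tile, at Mest, was higher in W796A than in WT.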

How the data were processed

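The deposited table gave, per CpG and library, the count of methylated reads and the count of all reads, as the authors deposited it. Per the submitters' processing notes, cutadapt 1.2.1, Bismark 0.18.1 and Bowtie 1.2 were used with builds mm10 and GRCm38, with no roles stated. CpGs with at least 1 read in all 18 libraries (6143659, or 28.1%) were summed in 1 kb tiles. Each tile with 10 or more reads in all libraries was fitted by quasi-binomial logistic regression in Python 3.11.15 (numpy 2.4.6, scipy 1.17.1), with 12 residual degrees of freedom and overdispersion moderated across tiles as in limma (prior 3.24 on 11.6 degrees of freedom). P-values were adjusted (Benjamini-Hochberg) over 620960 tiles. Differences are between levels of summed reads per group. The alternative test was limma 3.58.1 in R 4.3.3 on log2 ratios with 0.5 added. Levels of windows, starts, bodies and spans are means over all 1 kb tiles with a measured CpG, tested or not. Windows were compared by exact permutation of libraries.

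On simulated counts for 60000 tiles, for W465A against WT the model called 45 of 100 tiles that were moved by 40 points and 6 of 100 moved by 20 points. All other simulated tiles were left unmoved, whereas 92.1% of the genome's tiles were called lower in the W465A data. The adjustment is stricter when few tiles change, so these shares are not the detection rate for W465A. No tile was moved in W796A, and for W796A against WT the model called 1 of the 60000 unmoved tiles. How often it would call a real W796A difference was therefore not measured. An uncalled tile there does not show that levels were alike. Read depth limits each value, and PCR reads carry no molecular identifiers.

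The members and lists were chosen with earlier results of these data known. Regions named are the germline windows, starts, bodies and flanks of the members, and tiles are those of these windows, those that depart from additivity and, per comparison, the 3 called tiles with the largest difference whose libraries do not overlap. Others are named after their values were seen. Gene positions are from GENCODE M21 and sequences from the GRCm38 reference and the RefSeq promoter table. CpG positions matched the reference on chromosomes 7, 9 and 12. Alternatives were other read minimums, shifted tiles, limma, blocking on the replicate number and the omission of each library in turn.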

Additional observations from a re-analysis of the deposited data

Results flagged for a closer look

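At 3 member tiles the effect of W796A differed between the WT and W465A backgrounds by a test of the difference itself. The test was the interaction term of the quasi-binomial model, on the logit scale, with Benjamini-Hochberg adjustment over all tiles. The points given with it are differences of differences between pooled levels, which that test does not measure. They were 50.13 at the Meg3 tile chr12:109549001-109550000 (adjusted p = 0.0139) and 38.85 at the Rasgrf1 exon tile chr9:89953001-89954000 (adjusted p = 0.0486). At the tile chr12:109526001-109527000 upstream of Meg3 they were 34.03 (adjusted p = 0.0239). Its pooled levels were 52.6% in WT, 34.9% in W796A, 5.31% in W465A and 21.6% in W465A/W796A. Adding the single effects in points thus gives a negative level there. Part of the 34.03 points comes from the lower W796A level, whose libraries overlapped those of WT. The share of member tiles, 1.61%, was near the 1.68% of the genome. The count of such member tiles was 0 with limma or when WT replicate 2, W465A replicate 3 or W465A/W796A replicate 1 was left out, and 31 when W796A replicate 2 was. Genome shares under these settings are not given here.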

How the results depend on the processing

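No single tile turned its direction where it was called in the main or the alternative run. Of the values, 478 stayed on their side of the threshold, 65 lost their call and 8 gained one. A turn of direction in a tile uncalled in both runs was not counted. Counts of member tiles lower than WT were 166, 170, 78 and 170 in W465A, W464A/W465A, W465A/W796A and the triple mutant. With at least 20 reads per tile they were 100 in W465A, 101 in W464A/W465A and 100 in the triple mutant. With no minimum they were 260 in W464A/W465A and 272 in the triple mutant, and with CpGs of at least 5 reads 64, 63, 25 and 65 in that order, and 14 for W465A/W796A above W465A. These minimums change how many tiles are tested. With limma, counts were 20 for W465A/W796A against WT, 9 against W465A and 0 for departure from additivity. Leaving out each library gave 144 to 167 for W465A, 157 to 171 for W464A/W465A, 0 to 109 for W465A/W796A, 163 to 170 for the triple mutant, 1 to 60 for W465A/W796A against W465A, 0 to 31 for departure from additivity and 0 to 4 for W796A. Same-numbered replicates were checked for pairing and not treated as pairs: their deviations correlated at 0.0734 to 0.116 for WT with W796A, and at most at 0.0536 otherwise. With a replicate block, counts were 48 for W465A/W796A against WT, 50 against W465A, 3 for departure from additivity and 1 for W796A, the H19 upstream tile (adjusted p = 0.0320). The window levels kept their direction in 119 alternatives and turned in 1, the Meg3 window in W796A without W796A replicate 1 (2.03 points); these leave-one-out values ran from -15 to 2.03. All these counts are of member tiles, without the genome's share under the same setting. The cause of these changes was not tested, and few reads per tile limit the detection of small differences.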
